A study of Homo sapiens with 6 samples.

Results

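Transcripts of 10 regulators of heat-producing fat were read in Daoy cells, an established human medulloblastoma line, that carried added ZBTB7B, a zinc-finger transcription factor. The genes are PPARGC1A, PPARGC1B, PRDM16, EBF2, HNRNPU, CEBPA, CEBPB, CEBPD, DIO2 and UCP2, found through the GENCODE release 29 symbols of the Ensembl identifiers. They are 10 of the 60554 identifiers counted, and all 10 passed the low-count filter that left 18683 genes to test. In the WT group (3 libraries) a lentivirus carried wild-type ZBTB7B. In the ZFmut group (3 libraries) it carried ZBTB7B with the R363L substitution in the zinc-finger domain. Cells of both groups grew for 4 days in 10% serum, and each virus was applied for 72 hr at 15 infectious units per cell (the multiplicity of infection). No library without a transgene was analysed here, so each comparison is between forms of added ZBTB7B in a single tumour line. The labels do not state whether replicates came from separate cultures, so the p-values below rest on a spread between libraries that may be technical only.

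Brown and beige fat cells burn fuel to make heat. PRDM16 and EBF2 are transcriptional regulators that set brown fat identity, the C/EBP proteins are leucine-zipper factors that drive fat cell differentiation, and the PGC-1 coactivators raise mitochondrial biogenesis. Cold acts through adrenergic receptors and cAMP, which raise PPARGC1A and DIO2, and the DIO2 enzyme converts thyroxine to active thyroid hormone inside the cell. ZBTB7B is best known from T cell fate choice, and in mouse fat it has been described as working with HNRNPU, a nuclear RNA-binding protein, in the brown fat programme. Daoy cells are not fat cells, and the values below describe these genes in that tumour background.

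Gene counts per library ranged from 22236214 to 102730428, and levels are given as CPM, a gene's reads relative to the library's total as scaled by TMM factors. ZBTB7B itself, transgene and chromosomal copies together, stood at 899, 863 and 951 CPM in WT and at 555, 547 and 627 CPM in ZFmut, a log2 difference of 0.65 ± 0.06 (SE; adjusted p = 7.65e-07), so the groups differed in the amount of ZBTB7B transcript as well as in its form. These cannot be told apart here. All 8 markers chosen for Daoy cells exceeded 1 CPM, with summed levels, mostly VIM, of 1049 to 1099 CPM in WT and 1115 to 1150 CPM in ZFmut. GLI1 (log2 0.34) and PTCH1 (0.14) were called higher with WT, NES (-0.45) and SFRP1 (-0.21) lower, and the other 4 did not pass. VIM shares 24.4% of its exonic length with genes on the other strand, so its value is less certain. The 12 markers of mature fat cells summed to 93.8 to 107 CPM in WT and 88.6 to 105 CPM in ZFmut, most of it from AGPAT2 and DGAT2, which other cells also express. Of the fat-cell hormones among them, ADIPOQ and RETN had 0 or 1 read in every library and LEP had 0 to 5.

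Windows of 300 bases around transcription starts, 250 before and 50 after, were taken from RefSeq (GRCh38.p14). Of 8 members looked up, 7 matched, all but PRDM16. The windows of DIO2, PPARGC1A and CEBPB are shown because these members carry the differences described below and lie on the cAMP and C/EBP routes named above. They run 5′ to 3′ on the gene's strand. Capitals mark the cAMP response element TGACGTCA, its shorter core TGACG (written CGTCA where it lies on the opposite strand), or the C/EBP site TTNNGCAA.
DIO2, chr14:80212129-80212428, minus strand: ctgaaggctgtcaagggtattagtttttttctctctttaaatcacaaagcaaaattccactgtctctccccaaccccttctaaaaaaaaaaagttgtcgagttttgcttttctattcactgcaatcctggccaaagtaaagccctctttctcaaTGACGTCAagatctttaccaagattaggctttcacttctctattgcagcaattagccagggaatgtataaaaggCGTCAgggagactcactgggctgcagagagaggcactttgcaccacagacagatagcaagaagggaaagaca
PPARGC1A, chr4:23881052-23881351, minus strand: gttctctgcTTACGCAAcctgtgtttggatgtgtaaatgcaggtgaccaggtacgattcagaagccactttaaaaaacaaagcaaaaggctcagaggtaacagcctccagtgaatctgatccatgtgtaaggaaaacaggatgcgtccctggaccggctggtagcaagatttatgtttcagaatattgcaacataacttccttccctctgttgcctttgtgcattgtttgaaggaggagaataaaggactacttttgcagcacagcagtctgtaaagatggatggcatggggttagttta
CEBPB, chr20:50190580-50190879, plus strand: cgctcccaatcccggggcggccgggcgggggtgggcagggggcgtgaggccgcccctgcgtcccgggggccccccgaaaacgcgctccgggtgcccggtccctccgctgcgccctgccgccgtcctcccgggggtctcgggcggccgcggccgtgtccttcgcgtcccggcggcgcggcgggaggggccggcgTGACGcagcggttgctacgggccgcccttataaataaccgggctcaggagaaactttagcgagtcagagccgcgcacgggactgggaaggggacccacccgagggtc

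The DIO2 window shown holds a full cAMP response element at position -96 from the start, counted on the gene's strand, and a further core at position -22. It lies inside the gene as annotated in GENCODE 29, whose 5′ end is at 80387757. No sequence around that DIO2 end was examined. On both strands, the full element occurs in 1.84% of the 34796 windows of this length, and the core, which lies inside every full one, in 24.5%. PPARGC1A has a C/EBP site at position -241 of the window shown, a motif found in 10.5% of windows, and no cAMP motif there. This window lies inside the gene as annotated in GENCODE 29, whose 5′ end is at 23904089. The sequence around that end was not examined. The CEBPB window shown has a core at position -57. RefSeq gives DIO2 and CEBPB each another window, and neither of these holds any of the 3 motifs. Another PPARGC1A window, which starts at 24472856 on chromosome 4 and so lies outside the gene as annotated in GENCODE 29, has a core at position -119. HNRNPU, whose window is not shown, has a core at position -54. TATAAA, in 11.6% of windows, lies at position -31 of the DIO2 window shown and -29 of that of CEBPB. These are matches of letters only.

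At an adjusted p under 0.05 in edgeR's quasi-likelihood test, 4 of the 10 members were higher with WT (DIO2, PRDM16, CEBPD and PPARGC1A), 2 were lower (CEBPB and HNRNPU) and 4 did not pass. Of all tested genes, 18.6% were called higher, 17.3% lower and 35.9% in either direction. The members' share called was 60%, from 10 genes that were chosen with earlier results of these data known. Their median log2 difference, WT minus ZFmut, was 0.01 beside 0.00 over all tested genes, and their median absolute difference was 0.41 beside 0.19. In 8 members the 3 libraries of each group did not overlap, 4 with WT above and 4 below, where 47.2% of all tested genes showed such separation, 24.4% with WT above and 22.8% below. In bulk RNA, fewer cells with a transcript and less of it per cell cannot be told apart.

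**Figure D1:**
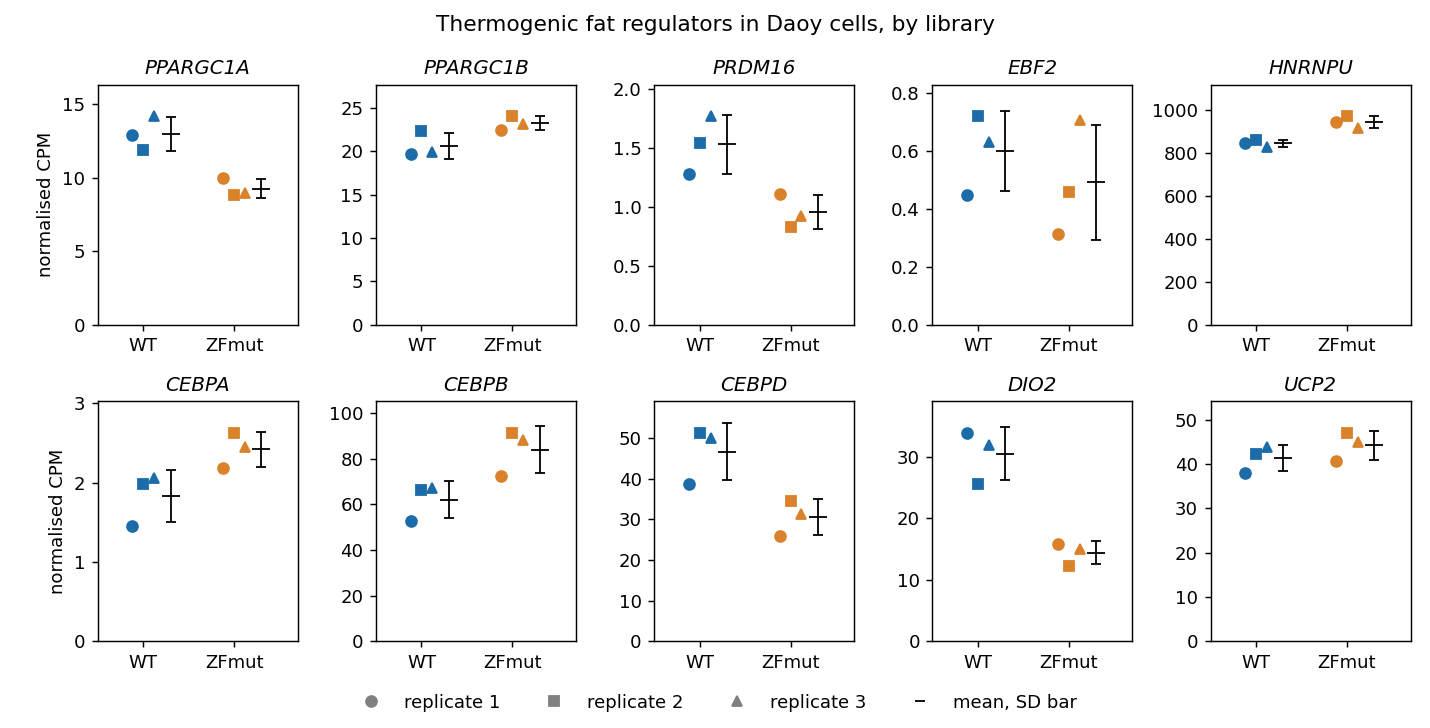
Normalised CPM (linear axis from 0) of each of the 10 genes in the 3 WT and 3 ZFmut libraries, with marker shape for the replicate number and the mean with SD as a bar. The groups are apart in 8 panels and overlap in EBF2 and UCP2.

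DIO2, the activating deiodinase, showed the largest difference among the 10. Its gene lies on the minus strand of chromosome 14 (GRCh38, 80197527 to 80387757). It had 33.9, 25.6 and 32.0 CPM in WT and 15.8, 12.3 and 15.1 CPM in ZFmut. Every WT library was above every ZFmut library, and replicate 2 was the lowest of its group in each. The level was 2.10-fold higher with WT (log2 1.07 ± 0.11, adjusted p = 1.56e-06), and the call held in all 16 alternative settings. DIO2-AS1 shares 0.934% of the exonic length and had 3 to 10 reads per library. Of the other deiodinases, the DIO1 transcript was near the limit of detection, with 9 to 41 reads per library and no call (log2 -0.41 ± 0.34, adjusted p = 0.370), and DIO3, which inactivates the hormone, had 0 to 7 reads and was not tested.

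The thyroid hormone receptors moved the other way from DIO2. THRA was lower with WT, at 27.4 ± 1.81 CPM against 44.8 ± 1.92 in ZFmut (SD, n = 3; log2 -0.71 ± 0.07, adjusted p = 8.82e-07). THRB, named here after its values were seen, was also lower with WT (log2 -0.22 ± 0.08, adjusted p = 0.0430).

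PPARGC1A encodes the PGC-1 coactivator that cold induces in brown fat. The gene is on the minus strand of chromosome 4 (23755041 to 23904089). Its level was 12.9, 11.9 and 14.2 CPM in WT and 9.99, 8.84 and 8.95 CPM in ZFmut. The groups were apart, with WT higher by 1.40-fold (log2 0.49 ± 0.09, adjusted p = 0.000617), and the call held in all 16 alternatives.

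Its relative PPARGC1B, a coactivator with overlapping mitochondrial targets, lies on the plus strand of chromosome 5 (149730298 to 149855022). It stood at 19.7, 22.3 and 19.9 CPM in WT and at 22.4, 24.0 and 23.2 CPM in ZFmut. All 3 WT libraries were below the lowest ZFmut library, by a narrow margin for replicate 2. The difference did not pass the test (log2 -0.16 ± 0.07, adjusted p = 0.0877). It did pass in 4 of 16 alternatives, without WT replicate 2 (log2 -0.23, adjusted p = 0.0445), without ZFmut replicate 1 (log2 -0.20, adjusted p = 0.0414), with reads thinned to the smallest library (log2 -0.29, adjusted p = 0.0281) and with the replicate number as a block (adjusted p = 0.0171).

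Per kilobase of exon, the scale on which genes can be compared, PPRC1 was the main transcript of the PGC-1 family. This growth-related member made up 87.6 ± 0.152% of the family's summed level in WT and 90.5 ± 0.374% in ZFmut. PPRC1 was lower with WT, at 120 ± 3.60 against 153 ± 6.16 CPM (log2 -0.35 ± 0.05, adjusted p = 8.70e-05). PPARGC1A contributed 5.31 ± 0.522% in WT and 3.07 ± 0.327% in ZFmut, and PPARGC1B 7.11 ± 0.370% and 6.47 ± 0.0908%. The level of PPARGC1B over that of PPARGC1A was 1.28, 1.59 and 1.18 in WT against 1.89, 2.29 and 2.18 in ZFmut, a ratio looked at after the values were seen and not tested.

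CEBPD and CEBPB, the early C/EBP factors of fat differentiation, moved in opposite directions. CEBPD (chromosome 8, 47736909 to 47739086, minus strand) had 38.7, 51.4 and 50.0 CPM in WT and 25.9, 34.5 and 31.5 CPM in ZFmut. WT was above ZFmut in every library, by 1.53-fold on average (log2 0.61 ± 0.10, adjusted p = 0.000308). CEBPB (chromosome 20, 50190734 to 50192689, plus strand) had 52.9, 66.4 and 67.1 CPM in WT and 72.4, 91.5 and 88.3 CPM in ZFmut. Here WT was below ZFmut in every library, and ZFmut was 1.35-fold higher (log2 -0.44 ± 0.09, adjusted p = 0.00145). Both calls held in all 16 alternatives. In each group, replicate 1 was the lowest library for both genes.

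Because the pair shared this lower replicate 1, their ratio varied less than either level. On the per-kilobase scale the level of CEBPB over that of CEBPD was 1.52, 1.44 and 1.49 in WT and 3.12, 2.95 and 3.13 in ZFmut. This ratio was chosen after the values were seen and carries no test. CEBPB overlaps CEBPB-AS1 over 11.8% of its exonic length, which makes its count less certain without strand, but the antisense gene was at 0.807 ± 0.119 CPM in WT and 0.615 ± 0.0887 CPM in ZFmut and was not called.

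CEBPA, the C/EBP factor of terminal fat differentiation (chromosome 19, 33299934 to 33302564, minus strand), was low. It had 1.45, 1.99 and 2.06 CPM in WT and 2.19, 2.63 and 2.44 CPM in ZFmut. The WT libraries were all below the ZFmut libraries, yet the difference did not pass (log2 -0.39 ± 0.16, adjusted p = 0.0787), and it passed in none of 15 alternatives. Its gene shares 43.4% of its exonic length with AC008738.3 and AC008738.5 on the opposite strand. Both lie wholly inside it, so their counts of 0 say nothing of their expression where shared reads are left out, and the CEBPA value is less certain. CEBPG, the broadly expressed member of the family, did not pass either (log2 0.09 ± 0.06, adjusted p = 0.256), nor did DDIT3, a stress-induced relative (log2 0.12 ± 0.11, adjusted p = 0.423). DDIT3 shares 31.6% of its exons with genes on the other strand and 8.03% with genes on its own, so its value is uncertain.

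Summed over CEBPA, CEBPB, CEBPD and CEBPG, the C/EBP level was 65.0 ± 7.16 CPM per kb in WT and 68.4 ± 7.14 in ZFmut, a difference within the spread of the libraries. Within that sum the share of CEBPD was 32.9 ± 1.39% in WT and 20.5 ± 0.842% in ZFmut, and that of CEBPB was 48.8 ± 1.07% and 62.7 ± 1.40%. The CEBPA share was 1.07 ± 0.0839% and 1.35 ± 0.0289%. It is a low estimate if reads on the stretches shared with other genes were left out, since its level is divided by all its exonic bases.

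**Figure D2:**
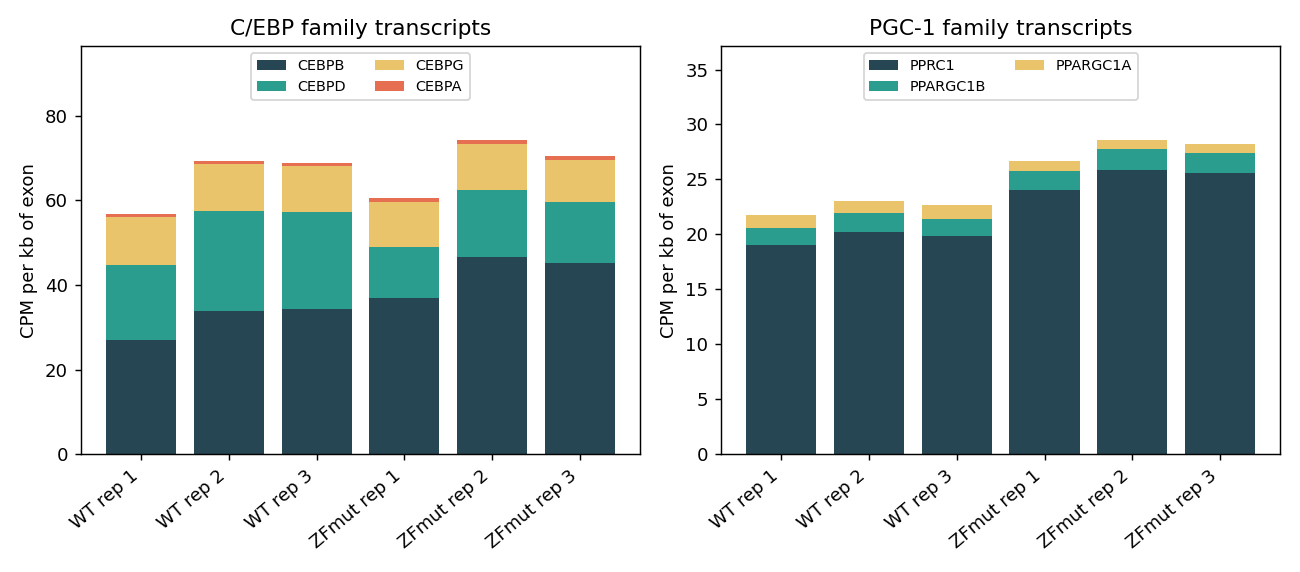
Stacked CPM per kb of exon of the C/EBP genes (left) and the PGC-1 genes (right) in each library. The C/EBP stacks have a like height in both groups, 56.7 to 74.3 CPM per kb, with a larger CEBPD layer in the 3 WT libraries, and PPRC1 fills most of every PGC-1 stack.

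PRDM16, the zinc-finger coregulator that holds brown fat identity (chromosome 1, 3069168 to 3438621, plus strand), was rare. It had 1.28, 1.55 and 1.77 CPM in WT and 1.12, 0.834 and 0.923 CPM in ZFmut, from 20 to 94 reads per library. The groups did not overlap, although WT replicate 1 and ZFmut replicate 1 were close. WT was 1.63-fold higher (log2 0.70 ± 0.20, adjusted p = 0.0120). The call was lost in 4 of 15 alternatives, in DESeq2 (adjusted p = 0.0748), without WT replicate 3 (0.0619), without ZFmut replicate 3 (0.0811) and with thinned reads (0.0553). MECOM, the close relative of PRDM16, was at 36.2 to 42.8 CPM over the 6 libraries and did not pass (log2 -0.04 ± 0.07, adjusted p = 0.739).

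EBF2, which marks brown fat precursors (chromosome 8, 25841730 to 26045397, minus strand), was near the floor of detection. Its reads numbered 13, 41 and 20 in WT and 7, 11 and 72 in ZFmut. As CPM these are 0.449, 0.721 and 0.633 in WT and 0.312, 0.459 and 0.707 in ZFmut, and the groups overlap. No difference was detectable at this depth (log2 0.12 ± 0.31, adjusted p = 0.794), and the sign turned without WT replicate 2 (log2 -0.053) and without ZFmut replicate 1 (log2 -0.046).

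Other EBF genes were far more abundant. Per kb, EBF4 made up 43.8 ± 1.87% of the family's sum in WT and 52.1 ± 4.36% in ZFmut, EBF1 33.5 ± 0.995% and 25.6 ± 2.91%, and EBF2 0.865 ± 0.197% and 0.621 ± 0.232%. EBF4 was lower with WT (log2 -0.45 ± 0.09, adjusted p = 0.000854), a value that fell in size to -0.29 with GC and length offsets and the block. EBF1 was called higher (log2 0.21 ± 0.08, adjusted p = 0.0452), a call kept in 4 of 16 alternatives. With a library left out it stood only where that library was ZFmut replicate 1. EBF3 did not pass (log2 -0.16 ± 0.08, adjusted p = 0.166).

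HNRNPU, the described partner of ZBTB7B (chromosome 1, 244840638 to 244864560, minus strand), was abundant in both groups. It had 848, 861 and 828 CPM in WT and 945, 972 and 917 CPM in ZFmut. The 3 WT libraries lay below the 3 ZFmut libraries with little spread in either group. The difference was small, with ZFmut 1.12-fold higher (log2 -0.16 ± 0.05, adjusted p = 0.0163). It was not called without WT replicate 3 (log2 -0.14, adjusted p = 0.114), and with offsets for GC content and exon length it was larger (log2 -0.37). HNRNPU shares 15.6% of its exonic length with COX20 on the opposite strand, which makes its count less certain. COX20, itself 72% shared, was at 2.72 ± 0.219 and 2.69 ± 0.363 CPM. Its relatives HNRNPUL1 (log2 -0.14 ± 0.06, adjusted p = 0.0546) and HNRNPUL2 (log2 -0.05 ± 0.06, adjusted p = 0.566) did not pass. The HNRNPUL2 value is uncertain, since 44.1% of its exonic length is shared with HNRNPUL2-BSCL2 on its own strand.

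UCP2, a mitochondrial carrier that unlike UCP1 is found in many tissues, lies on the minus strand of chromosome 11 (73974667 to 73983307). It had 38.1, 42.2 and 43.9 CPM in WT and 40.6, 47.1 and 44.9 CPM in ZFmut. The groups overlapped and no difference was called (log2 -0.10 ± 0.07, adjusted p = 0.308), and with GC and length offsets the sign turned (log2 0.0039).

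UCP2 supplied 95.1 ± 0.860% of the summed per-kb level of UCP1, UCP2 and UCP3 in WT and 93.4 ± 0.190% in ZFmut. UCP1, the uncoupler that defines brown fat heat production, was at 3, 17 and 4 reads in WT and 14, 12 and 59 reads in ZFmut. As CPM, UCP1 stood at 0.104, 0.299 and 0.127 in WT and at 0.625, 0.501 and 0.579 in ZFmut. All WT libraries were below all ZFmut libraries, and UCP1 was called lower with WT (log2 -1.50 ± 0.37, adjusted p = 0.00543). It reached -2.27 without WT replicate 2 and was not called after thinning (log2 -1.20, adjusted p = 0.109), at a level of under 1 CPM throughout. UCP3 did not pass (log2 -0.06 ± 0.17, adjusted p = 0.806), nor did the brain-expressed carriers SLC25A14 (log2 0.22 ± 0.09, adjusted p = 0.0633) and SLC25A27 (log2 -0.03 ± 0.13, adjusted p = 0.897).

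The family relatives of the members named above form a list of 16 genes, of which 14 were tested. EBF1 was the 1 gene called higher with WT, PPRC1, EBF4 and UCP1 were the 3 called lower, and the median log2 difference was -0.05. Calls made up 28.6% of the tested relatives, beside 35.9% of all tested genes. DIO3 and CEBPE, a C/EBP factor of granulocytes with 0 to 2 reads per library, were not tested.

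**Figure D3:**
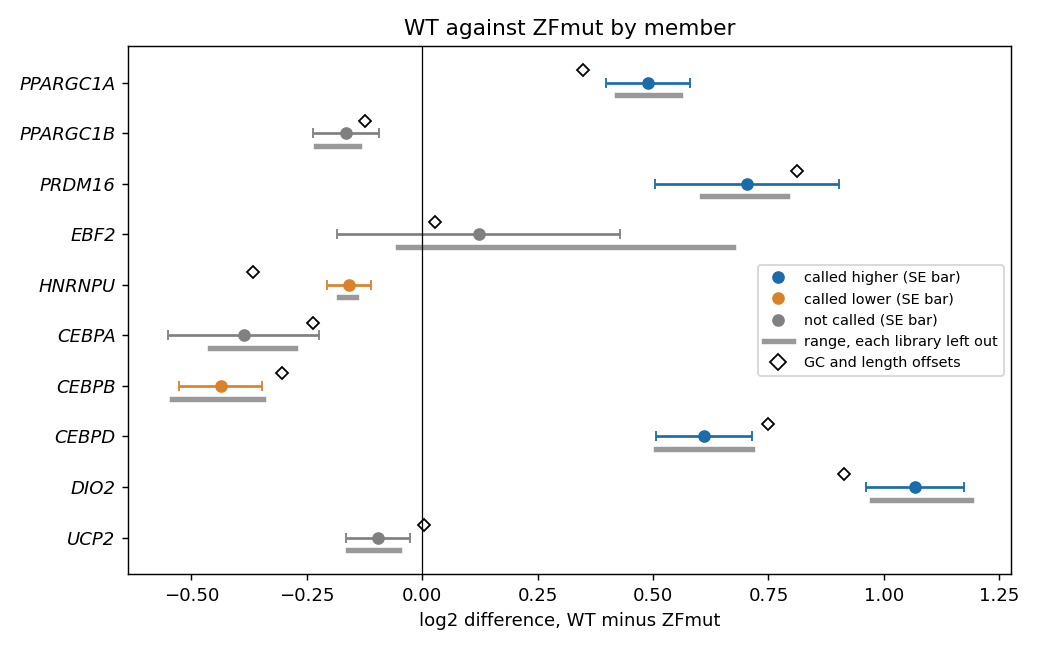
Log2 difference, WT minus ZFmut, of each of the 10 genes with its SE, the range over the 6 fits that leave out a library, and the value with GC and length offsets. DIO2 lies furthest from 0, the EBF2 range crosses 0, and HNRNPU moves from -0.16 to -0.37 with the offsets.

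The order of the 10 genes by mean level per kb was alike in both groups. Only neighbours changed places, HNRNPU with CEBPB and PPARGC1A with CEBPA, and each of these pairs overlapped in the ZFmut libraries. In WT it ran from HNRNPU (37.6 ± 0.744 CPM per kb) through CEBPB, CEBPD, UCP2, DIO2, PPARGC1B, PPARGC1A, CEBPA and PRDM16 to EBF2 (0.0849 ± 0.0196), and no neighbours in that order overlapped in their libraries. In ZFmut, CEBPB (43.0 ± 5.22) and HNRNPU (42.0 ± 1.22) overlapped, as did CEBPD with UCP2, DIO2 with PPARGC1B, CEBPA with PPARGC1A, and PRDM16 with EBF2. DIO2 thus stood at 4.07 ± 0.578 CPM per kb against 1.60 ± 0.115 for PPARGC1B in WT, and at 1.92 ± 0.251 against 1.80 ± 0.0617 in ZFmut. HNRNPU is divided by all its annotated exons, 22512 bases, many of which a mature transcript may not hold, so its per-kb level is a low estimate. The per-kb level of CEBPA, and so its place in the order, may also be low if reads on its shared exons were left out.

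The dependence of levels on GC content differed between the groups on average. A smooth trend of expression on GC content and length, fitted per library, differed between WT and ZFmut by -0.13 on the log2 scale at CEBPB and CEBPD, whose exons are 66.2 and 70.0% GC, by 0.14 at PPARGC1A and DIO2 (43.7 and 42.1%) and by 0.20 at HNRNPU (39.6%). In this trend every WT library was above every ZFmut library at PPARGC1A, DIO2 and HNRNPU. At CEBPB and CEBPD the groups overlapped, with replicate 1 the lowest in each group. The CEBPD trend was -0.228, 0.0452 and -0.0110 in WT and -0.0969, 0.0890 and 0.201 in ZFmut. With the per-library trends as offsets the log2 differences were 0.91 for DIO2, 0.35 for PPARGC1A, 0.75 for CEBPD and -0.30 for CEBPB, each past the threshold.

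For each called member, the protein-coding gene of at least 1 CPM with the closest profile over the 6 libraries was sought among 13333, by the root-mean-square distance of centred log2 CPM. DKK1, a secreted Wnt inhibitor, was closest to DIO2 (distance 0.0526). DMD, the dystrophin gene, was closest to PPARGC1A (0.0347), DMRT1 to PRDM16 (0.0695), TBXT to CEBPD (0.0603), NINJ1 to CEBPB (0.0173), and ALAS1, the rate-limiting enzyme of haem synthesis, to HNRNPU (0.0118).

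The partners of these regulators were counted as a list of 30 transcription factors and cofactors, 29 of them tested. With WT, 5 were higher and 11 lower, 55.2% in either direction beside 35.9% of all tested genes. The median log2 difference was -0.06. The lower count was 7 without WT replicate 3 and 6 without ZFmut replicate 3, and the higher count was 3 without WT replicate 2, ZFmut replicate 2 or ZFmut replicate 3. PPARG, the nuclear receptor that PRDM16 and the C/EBP factors work with, was at 67.6 ± 2.11 CPM in WT and 90.9 ± 4.91 in ZFmut (log2 -0.42 ± 0.05, adjusted p = 2.25e-05). PPARA (log2 -0.49) and PPARD (log2 -0.22), named after their values were seen, were also lower with WT, so all 3 PPAR genes were called in that direction. ZNF423, an EBF-binding factor that holds back the brown programme in white fat, was lower too (log2 -0.54 ± 0.06, adjusted p = 6.13e-06). CTBP2, a corepressor that binds PRDM16, was higher (log2 0.47 ± 0.05, adjusted p = 5.71e-06), though 34.7% of its exonic length overlaps genes on the other strand. GABPA, a nuclear respiratory factor (log2 0.41 ± 0.06), and RB1, the retinoblastoma corepressor (0.32 ± 0.06), were also higher, with smaller differences of 0.22 and 0.15 under GC and length offsets.

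Among 22 genes of adrenergic, cAMP and p38 signalling, 21 were tested, 6 were higher with WT and 3 lower, with a median of 0.08. The share called in either direction was 42.9%, beside 35.9% of all tested genes. ADRB3, the fat-cell adrenergic receptor, did not pass the count filter. PDE4B, which breaks down cAMP, was at 39.6 ± 2.04 CPM in WT and 25.8 ± 2.40 in ZFmut (log2 0.63 ± 0.07, adjusted p = 9.41e-06). MAP2K3, a kinase that activates p38, was higher as well (log2 0.46 ± 0.06, adjusted p = 1.87e-05). The regulatory subunits of protein kinase A were called in both directions, with PRKAR2A higher (log2 0.25 ± 0.05, adjusted p = 0.00136) and PRKAR2B lower (log2 -0.38 ± 0.06, adjusted p = 0.000259). PRKAR1A, named after its values were seen, was also higher (log2 0.21 ± 0.06, adjusted p = 0.0103). CRTC1, a CREB coactivator (log2 -0.25, adjusted p = 0.0181), and the cyclase ADCY3 (log2 -0.22, adjusted p = 0.0360), which overlaps other-strand genes over 26.0% of its exons, were lower, but lost the call in 4 and 5 of 16 alternatives. The lower count was 1 without WT replicate 1, ZFmut replicate 2 or ZFmut replicate 3.

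Heat and lipid-burning effectors gave 4 higher and 6 lower with WT among 22 tested of 25, with a median of 0.08. Calls in either direction made up 45.5%, beside 35.9% of all tested genes. Without WT replicate 2 the higher count was 2. SLC27A2, a fatty acid transporter and acyl-CoA synthetase, was at 5.53 ± 0.675 CPM in WT and 1.44 ± 0.221 in ZFmut (log2 1.96 ± 0.15, adjusted p = 1.37e-07), with 19.9% of its exons shared with other-strand genes. The genes of creatine synthesis were lower, GAMT at 36.2 ± 4.86 against 77.3 ± 9.18 CPM (log2 -1.09 ± 0.09, adjusted p = 3.29e-07) and GATM at 12.6 ± 0.0913 against 19.4 ± 1.07 CPM (log2 -0.61 ± 0.07, adjusted p = 1.15e-05). CKB, the creatine kinase of the futile creatine cycle, was higher (log2 0.38 ± 0.06, adjusted p = 0.000303). ACOT11, a thioesterase known from brown fat, was higher (log2 0.38 ± 0.11, adjusted p = 0.0166), at 0.24 without ZFmut replicate 1 and not called without WT replicate 2 (adjusted p = 0.0630). ACADM, of fatty acid oxidation, was lower (log2 -0.22 ± 0.06, adjusted p = 0.00495), at -0.37 with GC and length offsets. CIDEA, ELOVL3 and PM20D1 did not pass the count filter.

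Of 18 mitochondrial biogenesis genes that the PGC-1 coactivators are known to raise, all tested, 2 were higher with WT and 2 lower. That is 22.2% in either direction, beside 35.9% of all tested genes, and the median was -0.03. The higher genes were SOD2 (log2 0.20 ± 0.05, adjusted p = 0.00867) and PERM1 (0.71 ± 0.23, adjusted p = 0.0237), and the lower genes ALAS1 (-0.17 ± 0.05, adjusted p = 0.0170) and FNDC5 (-0.58 ± 0.21, adjusted p = 0.0438). PERM1 and FNDC5 were low. PERM1 was at 1.39 ± 0.402 CPM in WT and 0.846 ± 0.0769 in ZFmut, and FNDC5 at 0.958 ± 0.232 and 1.48 ± 0.198. None of these 4 calls held in every alternative. Without WT replicate 3 none of the 4 was called. Without WT replicate 2 the list had 1 higher and 1 lower, without ZFmut replicate 2 it had 1 higher, without ZFmut replicate 3 it had 1 lower, and with GC and length offsets 1 was higher and 8 were lower.

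Adipocyte markers were counted to see how far the cells carry fat-cell transcripts. Of 12, 8 were tested, 2 were higher with WT, 1 was lower, and the median was -0.11. The share called was 37.5%, beside 35.9% of all tested genes. LPL, lipoprotein lipase, was higher (log2 0.70 ± 0.09, adjusted p = 3.37e-05), as was DGAT2, of triglyceride synthesis (0.45 ± 0.09, adjusted p = 0.00170), and CFD, the adipokine adipsin, was lower (-0.97 ± 0.12, adjusted p = 1.80e-05). Only 5 of the 12, AGPAT2, DGAT2, LPL, CFD and ACVR1C, exceeded 1 CPM in any library. For the 5 brown fat markers, of which PPARG supplied most, the sums were 67.1 to 71.1 CPM in WT and 89.5 to 97.5 in ZFmut. The part of these markers in the members' differences was not tested.

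**Figure D4:**
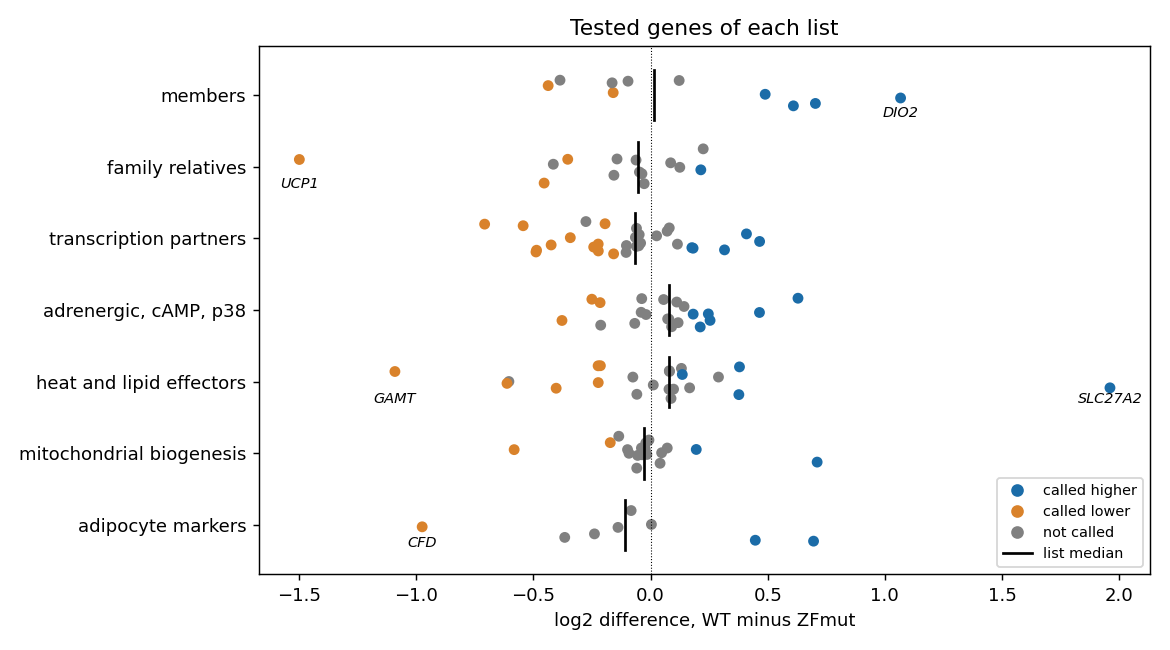
Log2 difference, WT minus ZFmut, of each tested gene in the 7 lists, coloured by the edgeR call, with the list median as a vertical bar. Every list holds calls in both directions and has a median between -0.11 and 0.08, and SLC27A2, DIO2, GAMT and UCP1 lie furthest out.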

How the data were processed

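The deposited files hold the authors' raw counts of reads per gene for 6 libraries, made with an unstranded NEBNext Ultra kit per the labels' protocols. The submitters' processing notes list DESeq2, HTSeq, TopHat2 2.0.9 and cutadapt with the GRCh38 build. For the annotation release and strand setting, the sources used here give nothing. The 5 summary lines of each file (ambiguous reads 7.71 to 8.08% of the total, no feature 5.04 to 6.56%, not unique 16.1 to 19.4%) were left out. GENCODE 29 held 94.1% of identifiers. No pair of libraries within a group agreed within sampling noise (chi-square per degree of freedom 3.16 to 7.17).

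WT and ZFmut were compared in R 4.3.3 with edgeR 4.0.16 (TMM, filterByExpr, robust quasi-likelihood F test, two-sided, Benjamini-Hochberg over 18683 genes, threshold 0.05). The biological coefficient of variation was 6.27%. SE is the absolute log2 difference over the square root of F, and ± on CPM is the SD of 3 libraries. The script was tested on simulated data. The 16 alternatives were other scaling factors, DESeq2 1.42.0, limma-voom (limma 3.58.1), 2 other filters, GC and length offsets (loess span 0.5), a replicate block with and without them, thinning to the smallest library, and each library left out in turn.

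Members and lists were chosen with earlier results of these data known. From each further list, up to 3 called genes per direction with the smallest p are named, besides all tested relatives of the members. A tested gene that is named and shares over 10% of exonic length with others has that share printed, and its value is less certain.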

Additional observations from a re-analysis of the deposited data

How the results depend on the processing

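DIO2, PPARGC1A, CEBPD and CEBPB kept direction and call in all 16 alternatives. Among the other members, PPARGC1B passed the threshold with the replicate block (-0.17) and after thinning (-0.29), and ranged from -0.23 to -0.14 with a library left out. PRDM16 lost its call in DESeq2 (0.69) and after thinning (0.79), and ranged from 0.61 to 0.79 with a library left out. UCP2 turned sign with GC and length offsets (0.0039, and 0.0059 with the block added). Over the fits that leave out a library, EBF2 ranged from -0.053 (without WT replicate 2, and -0.046 without ZFmut replicate 1) to 0.67 and HNRNPU from -0.18 to -0.14. The cause was not tested. PRDM16 and CEBPA gave no value under the 5 CPM filter, and EBF2 none there or after thinning.

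Members called higher numbered 3 to 4 and lower 1 to 3 with a library left out. Relatives called higher numbered 1, but 0 with median-of-ratios or upper-quartile factors, DESeq2, no filter, GC and length offsets with or without the block, or thinning, 2 with limma-voom or the block, and 0 to 2 with a library left out. Relatives called lower numbered 3, and 5 with GC and length offsets, with or without the block. Mitochondrial biogenesis genes called higher numbered 2, but 1 with DESeq2, the 5 CPM filter, GC and length offsets with or without the block, or thinning, and 0 to 2 with a library left out. Those called lower numbered 2, but 1 with DESeq2, the 5 CPM filter or thinning, 4 with the block, 8 with GC and length offsets, 9 with offsets and block, and 0 to 3 with a library left out. With a library left out, partners called higher numbered 3 to 4 and lower 6 to 12, cAMP genes called lower 1 to 4, and effectors called higher 2 to 4.

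Over all tested genes, the share higher among calls was 51.7%, and 43.1% with GC and length offsets. The main fit did not use the replicate numbers. Deviations from the group mean correlated at 0.164, 0.0770 and 0.0635 between WT and ZFmut libraries of replicates 1, 2 and 3. These values are low, but every library correlated best with its own number. Whether the numbers mark a shared batch was not tested. The replicate block raised the calls from 3466 higher and 3237 lower to 4489 and 4245. Reads limit EBF2, UCP1, DIO1 and DIO3, where a count of 3 corresponds to 0.0294 to 0.134 CPM.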

Other observations

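Among the markers of other cell types, AQP4, the astrocyte water channel, was at 1.51 ± 0.309 CPM in WT and 0.0870 ± 0.00312 CPM in ZFmut (SD, n = 3; edgeR log2 4.05 ± 0.33, adjusted p = 2.07e-07). The other astrocyte markers did not move alike: ALDH1L1, a folate enzyme, was higher (log2 0.55 ± 0.17, adjusted p = 0.0183) and GFAP, the glial filament protein, lower with WT (log2 -0.80 ± 0.29, adjusted p = 0.0456). GFAP was low, at 0.476 ± 0.112 CPM in WT and 0.893 ± 0.321 CPM in ZFmut. It shares 18.4% of its exonic length with other-strand genes, so its value is less certain. PECAM1, an endothelial adhesion molecule, was lower with WT, at 0.303 ± 0.129 against 1.37 ± 0.109 CPM (log2 -2.10 ± 0.28, adjusted p = 2.90e-05). CDH5, the other endothelial marker, had 0 to 3 reads per library and was not tested. SYT1, of synaptic vesicles, was higher (log2 0.56 ± 0.11, adjusted p = 0.000847) and SNAP25, of the same release machinery, lower (log2 -0.98 ± 0.18, adjusted p = 0.000491). RBFOX3, a neuronal splicing factor, did not pass (log2 0.10 ± 0.21, adjusted p = 0.743). Of the haematopoietic markers, ITGAM, an integrin of myeloid cells (log2 -1.50 ± 0.36, adjusted p = 0.00411), and the T cell coreceptor CD4 (log2 -0.77 ± 0.25, adjusted p = 0.0234) were lower with WT. Both were low, ITGAM at 0.199 ± 0.0757 against 0.541 ± 0.0829 CPM and CD4 at 0.739 ± 0.284 against 1.32 ± 0.170 CPM. PTPRC and CD3E had 0 to 7 reads per library. The marker lists are those of the cell type check, and genes within them were named after their values were seen.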
